A study of Mus musculus with 6 samples.

Results

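The 10 core circadian clock genes were followed in inguinal adipose tissue (iAT) of 6-day-old mice, namely the activators *Arntl*, *Clock* and *Npas2*, the repressors *Per1*, *Per2*, *Per3*, *Cry1* and *Cry2*, the nuclear receptor gene *Nr1d1* and the output gene *Dbp*. They were chosen by gene symbol for their place in the clock, and 10 of 10 were found among the 19831 genes of the deposited table. The samples were total RNA from iAT collected at postnatal day 6, 3 from wild-type (WT) and 3 from Npffr1-KO mice, all kept under specific pathogen-free conditions. Npffr1-KO mice lack *Npffr1*, a receptor for neuropeptide FF. The study's methods describe its young mice as male C57BL/6 and do not say whether this covers these samples, whose labels give neither strain nor sex. How the deletion was made and the time of day of collection were not stated in any label or method read here. The members were read as a check of collection time against genotype, since a difference in sampling hour can shift clock genes that cycle. No series over the day was at hand, so whether they cycle in iAT at postnatal day 6 was not tested.

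The mammalian clock is a feedback loop in nearly every cell, adipocytes included. BMAL1, encoded by *Arntl*, pairs with CLOCK or its paralog NPAS2, binds E-boxes and switches on the *Per* and *Cry* genes, whose proteins return to block the pair. A second loop runs through REV-ERB proteins, such as that of *Nr1d1*, which silence *Arntl* at ROR elements, and *Dbp* is a direct E-box target that acts on D-boxes, so that *Arntl* and *Npas2* peak at nearly the opposite time of day to *Nr1d1* and *Dbp*.

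Promoter stretches of the members that hold the letters of known clock motifs are shown to give those motifs in their sequence. No link between a motif and a level was tested. RefSeq promoter windows of build GRCm38.p6, running from 250 bases before to 50 bases after an annotated start, were at hand for 9 of 10 members, in 13 windows, and for *Per2* none was. Positions were counted from the start base as 0 and letters run 5′ to 3′ on the strand of the gene. The capitals mark the motif found on either strand, which was CACGTG (E-box) in *Per1*, TTATGTAA (D-box) in *Per3*, CACGTT (E'-box, read as AACGTG on the other strand) in *Cry2* and *Nr1d1*, both E-box forms in *Cry1*, and TAGGTCA (core of a ROR element) in *Arntl*.
Per1: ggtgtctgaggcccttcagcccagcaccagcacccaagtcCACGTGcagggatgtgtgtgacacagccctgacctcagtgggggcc
Per3: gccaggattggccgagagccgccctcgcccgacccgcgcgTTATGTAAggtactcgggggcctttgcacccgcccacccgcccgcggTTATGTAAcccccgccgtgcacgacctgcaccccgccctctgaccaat
Cry1: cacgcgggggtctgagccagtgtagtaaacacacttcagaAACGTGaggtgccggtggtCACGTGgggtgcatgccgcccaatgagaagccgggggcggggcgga
Cry2: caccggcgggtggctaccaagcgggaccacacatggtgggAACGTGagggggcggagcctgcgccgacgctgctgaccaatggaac
Nr1d1: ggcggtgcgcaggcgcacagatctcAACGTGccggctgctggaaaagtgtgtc
Arntl: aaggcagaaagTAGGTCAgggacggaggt
The *Per1* stretch lies at chr11:69098743-69098828 on the plus strand, within an intron of a longer *Per1* transcript. That of *Per3*, chr4:151044776-151044910 on the minus strand, holds the D-box at -205 and again at -158, and lies within an intron of *Camta1*. The *Cry1* stretch, chr10:85185069-85185173 on the minus strand, carries the E'-box at -79 and the E-box at -60. Those of *Cry2*, chr2:92434190-92434275 on the minus strand, and *Nr1d1*, chr11:98775378-98775430 on the minus strand, lie outside annotated genes. The *Arntl* stretch, chr7:113207530-113207558 on the plus strand, is exonic and lies 19 to 47 bases after the downstream of the listed *Arntl* starts. Exons and introns are those of GENCODE M21.

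*Npas2* and *Dbp* are shown as well because they had the largest difference downward and the only one upward. Their windows held none of the 5 motifs searched, the fifth being TGACGTCA, the cAMP response element (CRE), and neither did those of *Clock*. The letters given are the part of the window ahead of the first exon base in GENCODE M21.
Npas2: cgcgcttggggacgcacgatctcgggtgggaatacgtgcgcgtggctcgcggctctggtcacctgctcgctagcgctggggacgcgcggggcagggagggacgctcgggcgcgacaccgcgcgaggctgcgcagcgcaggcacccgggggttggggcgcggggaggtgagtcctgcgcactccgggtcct
Dbp: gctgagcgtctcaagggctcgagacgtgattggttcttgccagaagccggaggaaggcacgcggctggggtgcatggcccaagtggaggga
They lie on the plus strand at chr1:39194022-39194211, within an intron of a longer *Npas2* transcript, and at chr7:45704997-45705087, outside annotated genes. Of all 32851 RefSeq windows, 7.15% held the E-box, 4.68% the E'-box, 0.938% the D-box, 2.61% the ROR core and 1.79% the CRE. A match is a string of letters and not a bound site, and the missing match in *Npas2* and *Dbp* covers these 300 bases and no intron or distant element.

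**Figure D1:**
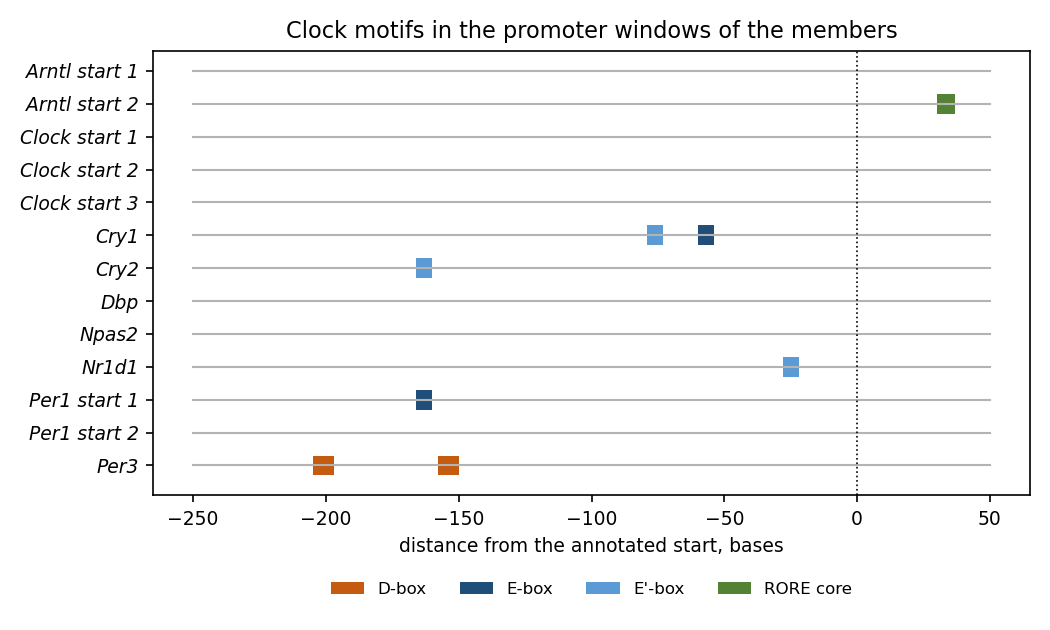
Motifs in the promoter windows of the members, with the distance from the annotated start in bases on the x axis (dotted line, the start) and 1 row per window. Coloured bars are motif matches on either strand. Of the 9 members with a window, 6 held at least 1 match, and *Clock*, *Npas2* and *Dbp* held none. Among the further clock genes of the wider list described below, 10 of 20 with a window held a match. The share of all genes with any match was not counted, so whether members hold matches more often was not tested.

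The table gives 1 value per genotype for each gene, in read counts normalized for library size by the authors, and no value per sample. The values are therefore given as the authors' values without error, and no test between genotypes was possible for genes whose reads per library could not be found. A ratio of at least 0.5 on the log2 scale, which is 1.41-fold, stood in for a call. It was passed by 9.15% of the 15309 genes whose mean reached 10 normalized counts, by 4.78% downward and by 4.37% upward. These values also draw the genotypes together for low genes, the largest log2 ratio among 585 genes with 1 read in the experiment being 0.07. The values sum to 23137343 in WT and 23640005 in Npffr1-KO, and the size factors of the 6 libraries ran from 0.916 to 1.04. *Npffr1* itself was barely read, with 6 reads in WT (1, 0 and 5 per library) and 0, 0 and 0 reads in Npffr1-KO. A count of 6 against 0 is too small to check the labels.

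All 10 members were expressed in iAT at postnatal day 6, between the 45.2 and the 84.9 percentile of the WT values of listed genes. Divided by gene length, *Cry2* was highest with 432 normalized counts per kilobase (kb) in WT, followed by *Nr1d1* with 417 and *Per1* with 303. *Dbp* (240), *Per3* (237), *Cry1* (203), *Arntl* (174), *Clock* (120) and *Per2* (115) came next. *Npas2* was lowest with 48.1, below *Clock*, whose place at the side of BMAL1 it can take. Which neighbours in this order differ beyond their spread could not be told from 1 value per genotype. In Npffr1-KO *Nr1d1* (404) stood ahead of *Cry2* (369), and *Dbp* (324) and *Per3* (220) stood ahead of *Per1* (217), while the order of the remaining 5 members was that of WT.

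**Figure D2:**
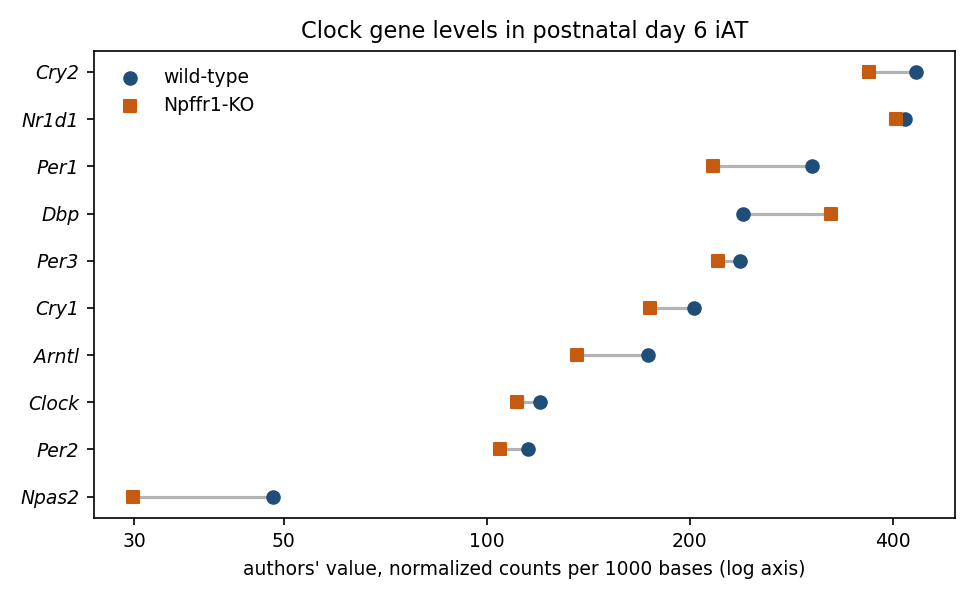
Levels of the 10 members in normalized counts per kb of gene length (log axis), the authors' value for WT (blue circles) and Npffr1-KO (orange squares). *Npas2* and *Per1* show the widest steps to the left and *Dbp* is the only member to the right of its WT value.

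Of the members, 9 of 10 had a lower value in Npffr1-KO than in WT, against 48.8% of all 15309 genes. Their median log2 ratio was -0.18, beside 0.0082 over all genes. *Npas2* passed the 0.5 size downward, and *Per1* lay just inside the limit at -0.49. That is 1 of 10 against the background of 9.15%, a share near the background. Of genes with a mean of at least 100, as all 10 members have, 6.06% passed. At a size of 0.25, 4 of 10 passed (*Npas2*, *Per1*, *Dbp* and *Arntl*) against 34.6% of all genes, and at a size of 1 it was 0 of 10 against 0.797%.

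The activators were lower in Npffr1-KO, with a median log2 ratio of -0.35 over the 3. *Npas2* had 201 normalized counts in WT and 125 in Npffr1-KO, a difference of -37.9% and a log2 ratio of -0.69. *Arntl*, the one activator without which the loop stops, had 487 and 382 (log2 ratio -0.35). *Clock*, whose level hardly cycles in most tissues, had 1157 and 1068 (-0.12). The size of the *Npas2* ratio exceeded that of 96.4% of all genes tested, the size for *Arntl* 79.9% and that for *Clock* 34.5%.

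The period and cryptochrome genes were lower as well, with a median of -0.22 over the 5 and none past 0.5. *Per1*, the period gene that also answers acutely to hormones and cAMP, had 1412 normalized counts in WT and 1008 in Npffr1-KO, a difference of -28.6% (log2 ratio -0.49). The ratios of its paralogs were smaller. *Per2* had 674 and 611 (-0.14), and *Per3*, whose loss leaves the loop running, had 1424 and 1323 (-0.11). The cryptochromes, the strongest repressors of the BMAL1 pair, were near each other in ratio. *Cry1* had 616 and 531 (-0.22) and *Cry2* had 1738 and 1484 (-0.23).

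*Nr1d1* and *Dbp*, which peak close together in the day, had unlike ratios. *Nr1d1* had 1159 normalized counts in WT and 1125 in Npffr1-KO (log2 ratio -0.043), the smallest difference of the 10. *Dbp*, a PAR bZIP transcription factor with one of the widest daily swings in most organs, had 403 and 544, a difference of 35.0% and a log2 ratio of 0.43. Its size exceeded that of 86.9% of all genes tested and lay under the 0.5 limit. In GENCODE M21, 18% of the exon bases of *Dbp* (539) lie opposite exons of *Sphk2*, 8.55% of those of *Nr1d1* (263) opposite *Thra*, and 4.67% of those of *Cry2* (295) opposite D930015M05Rik. Whether counting used strand was not stated in any label or method read here, so reads of such partners cannot be told apart from those of the members.

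Set side by side by phase, *Arntl* and *Npas2* were lower and *Dbp* higher in Npffr1-KO, while *Nr1d1* differed little and *Per1*, an early riser among the repressors, was lower. Collection hour and genotype cannot be told apart in these samples, since no hour is given for any of them. Whole iAT was sequenced, in which fewer cells of a type and less RNA per cell cannot be told apart.

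**Figure D3:**
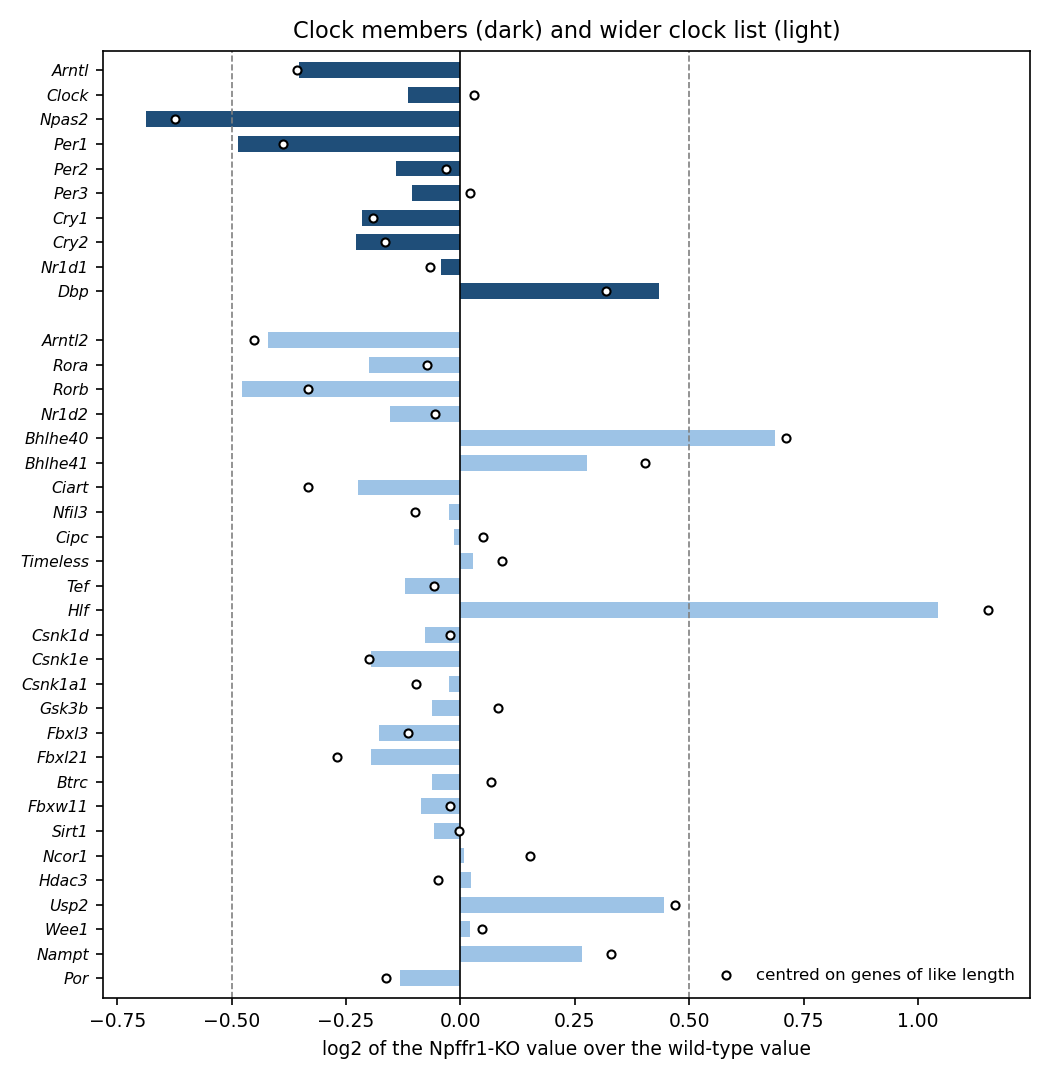
Log2 of the Npffr1-KO value over the WT value (bars; dark, the 10 members; light, genes of the wider clock list) with dashed lines at the 0.5 limits. Open circles give the same ratio after subtraction of the median of genes of like length; *Npas2*, *Bhlhe40* and *Hlf* lie past the limits in both readings.

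Across all genes, ratios were lower in longer genes. Across the 15309 genes the Spearman correlation of log2 ratio and length was -0.384, a description across genes, which are not independent. In 20 classes of length the median log2 ratio ran from 0.27 at a median length of 656 bases to -0.14 at 8970 bases. The members are long, with a median of 4100 bases. With each ratio set against the median of genes of like length, 7 of 10 members were lower and their median was -0.11. Of all 15309 genes, 7652 were lower in that reading. *Npas2* (-0.62), *Per1* (-0.39), *Arntl* (-0.36), *Cry1* (-0.19), *Cry2* (-0.16) and *Nr1d1* (-0.066) were lower and *Dbp* was higher at 0.32. *Per2* (-0.032), *Clock* (0.030) and *Per3* (0.021) were all within a few hundredths of genes of their length. The part of length in the ratios of *Clock*, *Per2* and *Per3* was not tested further.

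**Figure D4:**
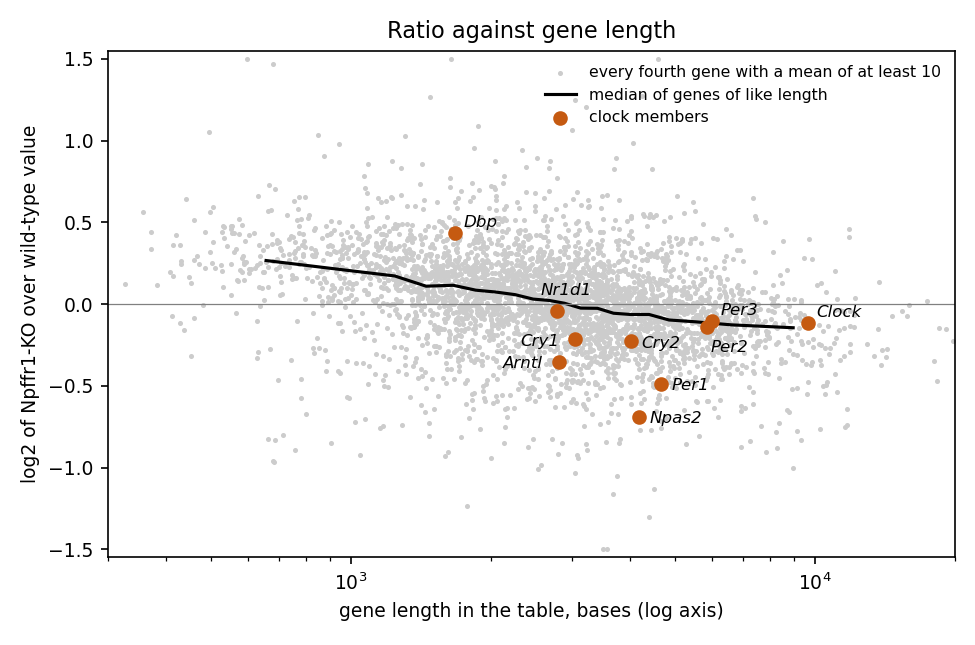
Log2 of the Npffr1-KO value over the WT value against gene length (log axis); grey, an evenly spaced subset of genes with a mean of 10 or more, drawn at the edge where past 1.5 in size; black, class medians from 0.27 to -0.14; orange, members. *Clock*, *Per2* and *Per3* sit on the line and *Npas2*, *Per1* and *Arntl* below it.

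For low genes the reads of each library could be found, because a mean of normalized counts is a sum of whole reads with 6 known weights. *Npas2* was the one member low enough, with 1 combination of reads matching its values within 45% of them. It had 177, 223 and 208 normalized reads over the WT libraries, against 119, 132 and 119 over those of Npffr1-KO. Every WT library lay above every Npffr1-KO library. The means were 203 ± 23.7 (SD, n = 3) and 123 ± 7.78 (SD, n = 3), a log2 ratio of -0.72, and the two-sided exact permutation p was 0.10, which is the smallest that 3 against 3 allows. Of 200 other low genes drawn from the table, 185 had 1 combination, 7 had none and 8 had several. In 37 of the 185 the genotypes did not overlap, which is 20%. This was more frequent at a mean of at least 100, where *Npas2* lies, than below it. In the 62 of the 185 whose mean reached 100, the median SD of log2 reads within a genotype was 0.21. At such means the search covered 45% either side of the genotype's value. Genes with more widely spread libraries are therefore missing from this SD. The largest difference between the log2 ratio of the reads and that of the authors' values was 0.083 in these 62. The labels do not say whether the 3 samples of a genotype came from separate animals, so the SD may in part be technical.

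The wider clock list holds 28 further genes of the pathway, and all were listed with a mean of at least 10. In Npffr1-KO 19 were lower and 9 higher, against 48.8% of all genes lower, with a median log2 ratio of -0.06. After centring on genes of like length, 17 were lower and 11 higher, with a median of -0.036. The 0.5 size was passed by 2 of the authors' ratios upward (*Hlf* and *Bhlhe40*) and by 0 downward. Of all genes 4.37% and 4.78% did so, and the list as a whole lay near the background.

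*Hlf*, a PAR bZIP factor that shares D-boxes with the *Dbp* product, had 135 normalized counts in WT and 277 in Npffr1-KO (log2 ratio 1.04, exceeding in size 99.3% of all genes tested). Its reads were 146, 133 and 114 in WT against 333, 216 and 294 in Npffr1-KO. The lowest Npffr1-KO library lay above the highest WT library (means 131 ± 16.0 and 281 ± 59.7, SD, n = 3 each; two-sided exact permutation p = 0.10, the smallest possible). The third PAR bZIP gene, *Tef*, was close in both genotypes, at 2930 and 2695 (-0.12). *Nfil3*, whose product represses through the same D-boxes, had 496 and 488 (-0.024).

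*Bhlhe40*, a bHLH repressor that competes for E-boxes and also answers to hypoxia and cytokines, had 821 normalized counts in WT and 1321 in Npffr1-KO (log2 ratio 0.69). Its paralog *Bhlhe41* had 358 and 434 (0.28). *Ciart*, another repressor of the BMAL1 pair and a target of its E-boxes, had 82.7 and 70.8 (-0.22). The *Ciart* reads were 118, 89.1 and 43.7 in WT and 56.9, 76.7 and 76.4 in Npffr1-KO, so that the genotypes overlapped and WT spread more widely (two-sided exact permutation p = 0.70). Its window held 3 E-boxes, the most of any gene on either list.

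*Arntl2*, the paralog of *Arntl*, had 202 normalized counts in WT and 151 in Npffr1-KO (log2 ratio -0.42). Its reads were 207, 192 and 210 in WT and 145, 166 and 140 in Npffr1-KO. No library of one genotype reached the other (means 203 ± 9.79 and 150 ± 13.7, SD, n = 3 each; two-sided exact permutation p = 0.10, the smallest possible). So 3 of the 6 clock genes whose reads could be found did not overlap, *Npas2*, *Arntl2* and *Hlf*. Of the low genes drawn it was 20%, with no matching on mean. These 3 had the highest means of the 6 (163, 176 and 206), while the drawn genes had means from 10 to 210. Drawn genes with a mean of at least 100 were apart more often than lower ones. The 20% is therefore lower than the share at such means, and 3 of 6 cannot be set against it directly.

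Other receptors that act at ROR elements had ratios under 0.5 in size by the authors' values. *Nr1d2*, the paralog of *Nr1d1*, had 982 and 882 (log2 ratio -0.15). *Rora*, an activator at the same elements, had 713 and 621 (-0.20). *Rorb*, an ROR of brain and retina, was near the floor at 22.4 and 16.1 (-0.48). Its reads gave a log2 ratio of -0.77, past 0.5, with 9.66, 25.5 and 37.7 in WT and 5.78, 30.3 and 6.55 in Npffr1-KO. They overlapped (two-sided exact permutation p = 0.50). The kinases that mark PER proteins and the ubiquitin ligases that remove PER and CRY were lower in 4 of 4 and 4 of 4, none past 0.5, with medians of -0.07 and -0.13, against 48.8% of all genes lower. Set against genes of like length, 3 of 4 in each group were lower, with medians of -0.060 and -0.069. The reads of the ligase gene *Fbxl21* overlapped, with 13.5, 17.6 and 11.9 in WT and 12.5, 10.1 and 13.1 in Npffr1-KO (two-sided exact permutation p = 0.40).

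**Figure D5:**
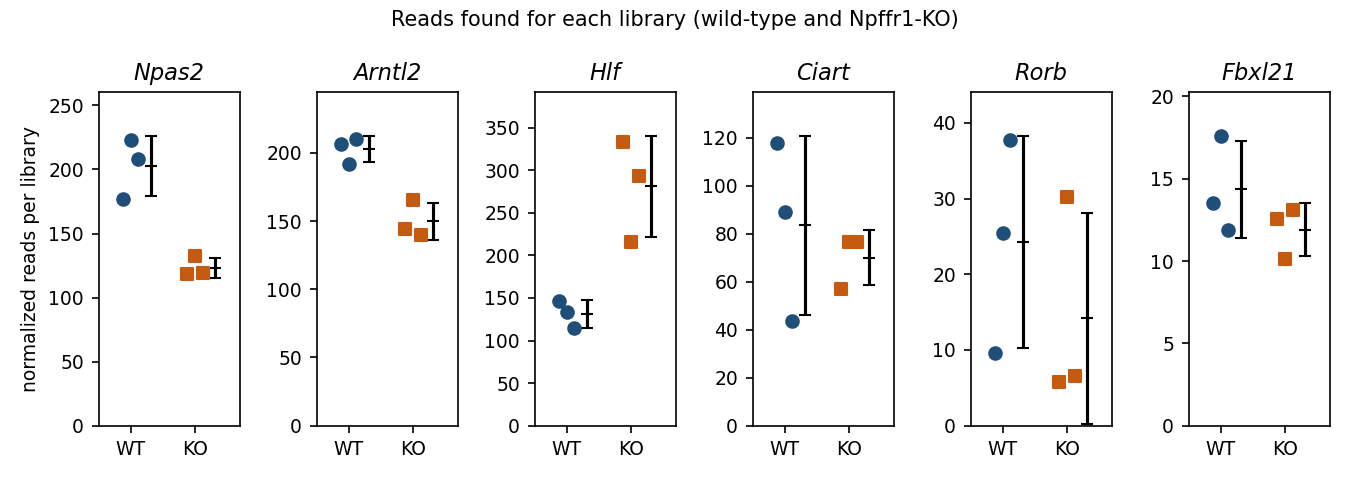
Normalized reads of each library for the 6 clock genes in which exactly 1 combination was found; points are libraries (circles WT, squares KO, n = 3 each) and bars the mean ± SD, on separate axes from 0. WT and KO points are apart for *Npas2*, *Arntl2* and *Hlf* and overlap for *Ciart*, *Rorb* and *Fbxl21*.

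Adipocyte markers summed to 361602 normalized counts in WT and 390723 in Npffr1-KO with 6 of 6 listed, led by *Fabp4*, *Lpl* and *Adipoq*. These sums show adipocyte content, and the inguinal depot was not tested by them. Of the peptide genes of the brain clock, *Avp* is not listed, and *Vip*, *Prok2* and *Grp* summed to 7.15 and 6.77. Markers of other cells also had unlike values in the 2 genotypes, with 1 value per genotype and no test. Of all 15309 genes, 7835 were higher in Npffr1-KO and 7474 lower, and 4.37% were higher by at least 0.5. Thermogenic adipocyte markers were higher in 5 of 5 (0.29 to 2.23 on the log2 scale, 4 past 0.5, sum 1433 and 4970), T cell markers in 4 of 4 listed (0.64 to 0.77, sum 4034 and 6683) and skeletal muscle markers in 4 of 4 with a mean of at least 10 (0.47 to 1.26, sum 353 and 698), the fifth, *Myh4*, having 1 read in the experiment. B cell markers were higher in 4 of 4 (0.08 to 0.33, sum 8386 and 9958). Macrophage markers were higher in 3 of 5 (-0.07 to 0.48, sum 17266 and 20209), near the share of all genes. *Lyz2* made up much of that sum, with 9262 and 11951, while *Csf1r* (-0.07) and *Mrc1* (-0.02) were slightly lower. Endothelial markers were lower in 4 of 4 (-0.43 to -0.28, sum 51024 and 40211) and progenitor markers in 3 of 4 (-0.37 to 0.01, sum 9762 and 8773). Set against genes of like length, the median log2 ratio went from 0.26 to 0.13 for B cell and from 0.29 to 0.16 for macrophage markers. It went from 0.73 to 0.55 for T cell, from 0.75 to 0.59 for muscle and from 1.69 to 1.44 for thermogenic markers. For endothelial markers it went from -0.39 to -0.30 and for progenitor markers from -0.13 to -0.23. The part of these cells in the differences of *Npas2*, *Per1*, *Dbp*, *Hlf* and *Bhlhe40* was not tested.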

How the data were processed

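Total RNA of iAT was extracted with TRIzol by the authors and sequenced in 6 samples, 3 per genotype by the labels. The deposited table holds the authors' signal, a library-size normalized read count given as 1 value per genotype, and a gene length in bases. The submitters' processing notes name Bowtie2, RSEM and DESeq2 without versions. The genome build is not given in the sources used here, nor is the annotation. Columns with the authors' own fold changes, p-values and direction calls were not used.

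Log2 ratios were taken without a pseudocount (Python 3.11.15, pandas 2.3.3). Genes with a mean of at least 10 formed the background. Libraries were told apart through the 6 values that genes with 1 read take, their genotype being that of the raised column, and whole reads were searched for genes with a mean up to 210. Combinations were sought within 45% of the genotype's value for means of at least 100, below that up to 2.5 times the larger value, and for the lowest genes over every possible number of reads, a range widened after the first gave no single answer for *Npffr1*. These limits, and the 15 significant digits to which sums had to match, were set after seeing the data, and a single combination is single within them. Libraries could not be tied to sample numbers. The search was tested on simulated data. Reads were compared by two-sided exact permutation tests (numpy 2.4.6), and ranks for the Spearman correlation were taken with scipy 1.17.1. All members and the paralogs and partners on the wider list were named, with any gene past 0.5, and the values of 1 gene of that list are not reported here. The members and lists were chosen with earlier results of these data known. Alternatives were a pseudocount (1 or 10), centring on the median gene or on genes of like length in 20 classes, other fold sizes and minimum means, levels not divided by length, and each library left out.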

Additional observations from a re-analysis of the deposited data

How the results depend on the processing

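A pseudocount (1 or 10) and centring on the median gene left 9 of 10 members lower and *Npas2* past 0.5. Centring on gene length turned *Clock* to 0.030 and *Per3* to 0.021, and 7 of 10 members were then lower. At a fold size of 0.25 on the log2 scale 4 members passed beside 34.6% of all genes, at a fold size of 1 it was 0 beside 0.797%. Of genes with a mean of at least 100, 6.06% passed 0.5. Compared with WT values per length, 7 members changed place in the order of levels when values were not divided by length, and 5 when the Npffr1-KO value was used. With each library left out in turn, the log2 ratio of *Npas2* reads ran from -0.81 to -0.64, that of *Arntl2* from -0.51 to -0.39, that of *Hlf* from 0.96 to 1.26 and that of *Fbxl21* from -0.39 to -0.10. That of *Ciart* ran from -0.56 to 0.076, turning upward without 1 WT library (118 reads), and that of *Rorb* ran from -1.98 to -0.31, the former without the Npffr1-KO library with 30.3 reads. No paired analysis was possible because neither values nor libraries could be tied to the numbered samples. The 9 members other than *Npas2* have no spread here, and exact tests of 3 against 3 cannot go below 0.10.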

Other observations

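Among the Npffr1-KO libraries, the one with the highest *Npas2* (132 normalized reads) and *Arntl2* (166) also had the highest *Rorb* (30.3) and the lowest *Hlf* (216). Its *Ciart* reads (76.7) lay beside those of another Npffr1-KO library (76.4). Among the WT libraries, the one with the lowest *Npas2* (177) had the highest *Ciart* (118) and the highest *Hlf* (146). Unlike in Npffr1-KO, the WT library with the highest *Npas2* (223) had the lowest *Arntl2* (192). With 3 libraries per genotype these are values without a test.

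Of the output genes on the wider list, *Usp2*, a deubiquitinase gene driven by the clock in many organs, had 259 normalized counts in WT and 352 in Npffr1-KO (log2 ratio 0.44), and *Nampt*, the rate-limiting enzyme of NAD+ salvage, had 1428 and 1718 (0.27). *Wee1*, a cell cycle kinase gene, had 485 and 492 (0.021), and *Por*, the electron donor of cytochrome P450 enzymes, had 4417 and 4028 (-0.13). These are the 4 output genes of the list, named after their values were seen, and all lie under the 0.5 limit.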
